A study of Mus musculus with 20 samples.

Results

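The liver comparison of the Fob3b and F mouse lines on the first of 2 spotted cDNA array designs consisted of 4 of the 20 arrays of the study. They were taken as the arrays of the first design whose channels are labelled with liver RNA of both lines from pools of the same number. F mice come from selection for high body fat. The Fob3b line is congenic to them: a segment of chromosome 15 with the Fob3b obesity locus was replaced by that of a lean line, so that both groups share the F genome outside the introgressed segment. Each line was represented by 2 pools of liver RNA, and no treatment is labelled. How many animals made up a pool, their age and sex, and the length of the introgressed segment were not given in the sources used here. Pools of equal number shared an array, once with Fob3b in red and once in green, which gives 2 pool pairs and n = 2. The design also held 4 arrays of brown adipose tissue from pools of the same lines, and 2 self-self arrays, in which liver pool 1 of the F line or of the Fob3b line filled both channels.

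Each spot has 1 deposited log ratio and no intensity. The ratios were taken as log2, and which dye is the numerator is not stated. Ratios are given with the Fob3b line over the F line as if red had been divided by green, so that the positive side means more RNA in the Fob3b line, and all signs would turn together if green had been divided by red. No level of any transcript can be given, and the tissue could not be checked against its markers. In RNA from whole tissue, fewer cells of a type and less RNA per cell cannot be told apart.

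The liver makes much of the body's cholesterol, packs fat and sterol into lipoproteins, burns fatty acids in mitochondria and peroxisomes, and supplies glucose and plasma proteins. Cholesterol synthesis runs from acetyl-CoA through mevalonate and squalene to the sterol rings. Its enzymes are controlled together by sterol-sensing transcription factors, and Sqle, the squalene epoxidase on chromosome 15, is one of them. Fatty acid synthesis and oxidation are opposed in the liver, the former rising after feeding and the latter in fasting. The mTOR pathway, which Deptor restrains, links insulin and nutrients to these programmes.

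The arrays differed in spread. The standard deviation over the 7680 clones was 0.334 to 0.631 on the 4 line arrays, and 0.318 and 0.403 on the self-self arrays, where no line difference is present. Clones beyond 1 on the log2 scale in either direction made up 0.742% and 8.31% of the clones on the arrays of pool pair 1, with Fob3b in red and in green, and 1.77% and 13.5% on those of pool pair 2. On the self-self arrays they were 2.07% for the F line and 0.690% for the Fob3b line. The array of each pool pair with Fob3b in green thus stood above the self-self arrays in this respect, and that with Fob3b in red lay within their range. The correlation between the paired spots of a clone was 0.760 to 0.913. Across clones, the dye orientations, once turned to the same direction, correlated at 0.16 in pool pair 1 and at -0.29 in pool pair 2, and the pool pairs at -0.20. These correlations are over clones of shared arrays and are given as descriptions.

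No clone differed between the lines in liver past an adjusted p of 0.05 in limma (0 of 7680, 0%), and the smallest adjusted p was 0.999977. At an unadjusted p under 0.05 there were 253 clones (3.29%), 127 (1.65%) on the positive and 126 (1.64%) on the negative side. Averaged per gene, 0 of 3838 genes (0%) passed and 103 (2.68%) had an unadjusted p under 0.05, 50 positive (1.3%) and 53 negative (1.38%). Ratios of 1 sign on all 4 arrays were found for 629 clones (8.19%), of which 368 (4.79%) were positive and 261 (3.40%) negative. The median moderated standard error (SE) of a clone was 0.20. With 1 liver pool pair left out, which takes the spread from brown adipose tissue alone, 131 clones passed for pool pair 1 and 32 for pool pair 2, and 1 clone passed in both. Of the 131, 128 were negative, with a median log2 ratio of -2.01 on the array with Fob3b in green, -0.29 on its dye swap and 0.15 in pool pair 2.

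Since no clone passed, the genes described first are, on each side, the 12 with the smallest unadjusted p among annotated clones of 1 sign on all 4 arrays. Their unadjusted p ran from 0.00088 to 0.023, and their order and signs describe these arrays without a call. Array values are listed in the order pool pair 1 with Fob3b in red, pool pair 1 with Fob3b in green, pool pair 2 with Fob3b in red and pool pair 2 with Fob3b in green.

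On the positive side the 12 means lay between 0.51 and 0.76 with SEs of 0.19 to 0.23. Ptprz1, a receptor-type tyrosine phosphatase best known from glial cells, had 0.68, 0.23, 0.30 and 1.46, a mean of 0.67 (SE 0.20, n = 2). Etl4 had 0.38, 0.25, 1.29 and 1.13, a mean of 0.76 (SE 0.23), and Tanc2, a synaptic scaffold protein, had 0.31, 0.35, 1.18 and 0.99, a mean of 0.71 (SE 0.22). For Etl4 and Tanc2 both arrays of pool pair 2 were above both arrays of pool pair 1. Pmm1, a phosphomannomutase that prepares mannose for glycoproteins, had 0.38, 0.13, 1.95 and 0.39, a mean of 0.71 (SE 0.23). Alg3, a mannosyltransferase of N-glycan assembly, had 0.18, 0.60, 0.13 and 1.78, a mean of 0.67 (SE 0.23). In each of these glycosylation genes 1 array of pool pair 2 stood far above the other 3.

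Cdh5, the cadherin of endothelial junctions, had 0.43, 0.05, 0.90 and 1.19, a mean of 0.64 (SE 0.22). Robo1, a receptor for Slit guidance proteins, had a mean of 0.59 (SE 0.21), and Npr3, the clearance receptor for natriuretic peptides, 0.54 (SE 0.19). The remaining 4 were Snrpb2 of the U2 spliceosome particle at 0.56, the ciliary protein gene B9d1 at 0.56, Commd9 at 0.55, and the checkpoint kinase gene Chek2 at 0.51. Repeat clones of genes on this side did not share its sign throughout. The 4 further Ptprz1 clones had means of -0.59, -0.36, 0.48 and 0.18, so that the gene as a whole had no single sign. The other clone of Etl4 had a mean of -0.03, that of Npr3 -0.01, and the 2 others of Snrpb2 -0.10 and -0.25, while the 2 others of Tanc2 were at 0.00. None of these repeats of Etl4, Npr3, Snrpb2 and Tanc2 came near the named clone.

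On the negative side the means lay between -1.09 and -0.54 with SEs of 0.19 to 0.25. Hdlbp, which encodes the RNA-binding protein vigilin, had -0.30, -1.61, -0.10 and -1.47, a mean of -0.87 (SE 0.19). Zfp281, a zinc-finger transcription factor, had -0.13, -1.05, -0.12 and -3.04, a mean of -1.09 (SE 0.25), a 2.12-fold difference. Timm8b, a chaperone of mitochondrial protein import, had -0.23, -1.55, -0.10 and -1.13, a mean of -0.75 (SE 0.20). In all 3, the values with Fob3b in green were far below those with Fob3b in red in both pool pairs. Errfi1, a feedback inhibitor of the EGF receptor, was more even, with -0.57, -1.47, -0.60 and -0.31, a mean of -0.74 (SE 0.21). So was Tmed5, a cargo receptor of the early secretory pathway, with -0.77, -0.28, -1.26 and -0.34, a mean of -0.66 (SE 0.21).

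Among enzymes of metabolism, Retsat, the retinol saturase, had -0.52, -1.33, -0.37 and -0.49, a mean of -0.68 (SE 0.22). Fh1, the fumarase of the citrate cycle, had -0.34, -1.50, -0.52 and -0.05, a mean of -0.60 (SE 0.21). Alb, the serum albumin gene, had -0.25, -2.27, -0.28 and -0.15, a mean of -0.74 (SE 0.25). The array of pool pair 1 with Fob3b in green gave the lowest of the 4 values in each, as it did for 9 of the 12 genes on this side. The others were Gdap1, a protein of the outer mitochondrial membrane, at -0.70, the WASH complex gene Washc3 at -0.63, the mRNA-binding protein gene Serbp1 at -0.61, and Psma3 of the proteasome core at -0.54.

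The means of the repeat clones on this side carried the sign of the named clone in each case, though their arrays did not always do so. The other Errfi1 clone, printed in another block, had -0.54, -1.08, -0.15 and -0.80, a mean of -0.64 (SE 0.20). Hdlbp had a further clone at -0.65, negative on all 4 arrays and printed in block 2 like the named clone. Its clone in another block was at -0.10, with 0.81 on the array of pool pair 2 with Fob3b in green. The 5 other clones of Serbp1 had means of -0.32 to -0.04, that of Psma3 -0.44 and that of Gdap1 -0.14. The pool pairs disagreed in sign for this Psma3 clone, at -1.29 and 0.41, and for this Gdap1 clone, at 0.36 and -0.64. Of the 702 genes with clones in 2 or more printing blocks, 3 (0.427%) had 1 sign in every clone on all 4 arrays, namely Errfi1 and the ribosomal protein gene Rpsa on the negative side and the deubiquitinase-family gene Usp53 on the positive side. The Rpsa clones had means of -0.42 and -0.51, and those of Usp53 0.26 and 0.15. With each printing block centred on its own median, Usp53 clone 9052 had -0.03, Errfi1 clone 2317 -0.49 and Rpsa clone 528 -0.23. None of these clones then had 1 sign on all 4 arrays, while the other clone of each gene kept its sign there.

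**Figure D1:**
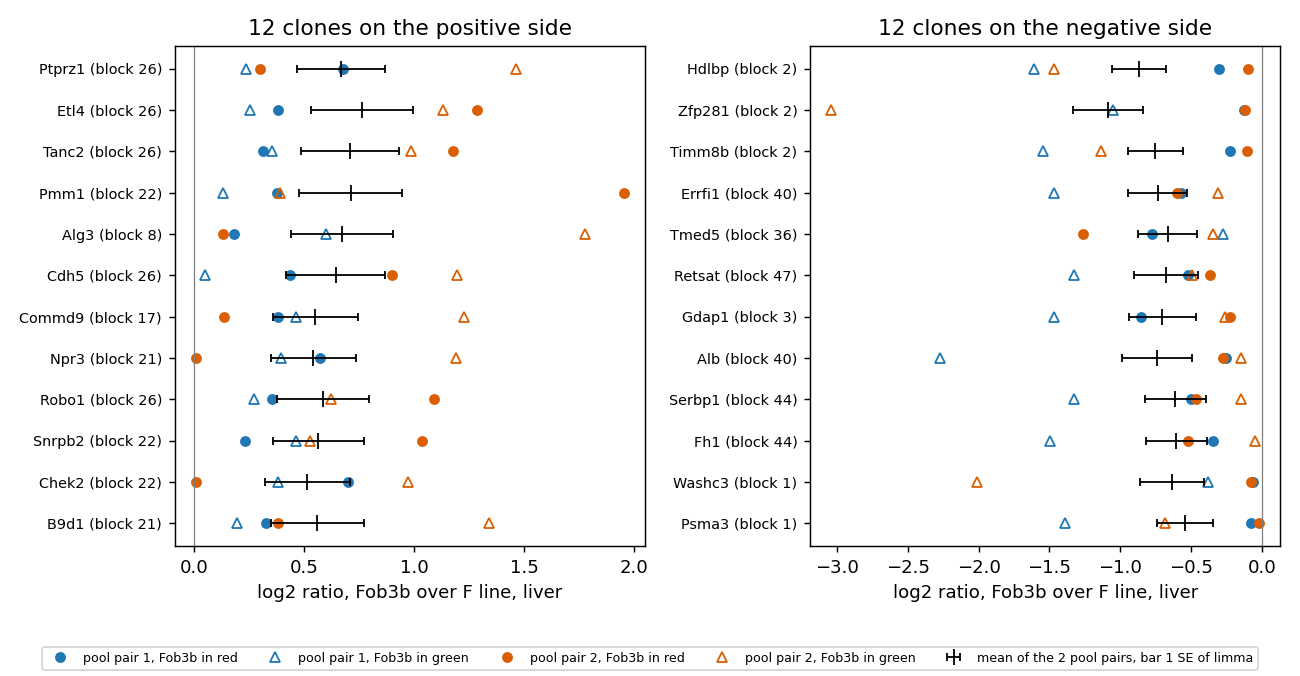
Log2 ratio of Fob3b over F in liver (horizontal axis) for the 12 named clones on each side, with the printing block of each; circles are arrays with Fob3b in red and triangles with Fob3b in green, blue for pool pair 1 and orange for pool pair 2, and the tick with its bar is the mean ± 1 SE of limma. The highest value of each clone on the positive side comes from pool pair 2, and 9 of the 12 lowest values on the negative side come from pool pair 1 with Fob3b in green.

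Position on the array moved with these values. The clones were printed in 48 blocks of 160, and differences between blocks made up 48.8% of the variance over clones on the array of pool pair 2 with Fob3b in red, 74.1% on its dye swap, 52.8% on the array of pool pair 1 with Fob3b in red and 12.6% on its dye swap. On the self-self arrays the share was 47.0% and 34.7%. On the F self-self array, red over green, 9 of the 12 clones on the positive side were above 0. Their median was 0.51, with up to 0.98 for Chek2, beside line means of 0.51 to 0.76. On the Fob3b self-self array 7 of the 12 were above 0, with a median of 0.06 and up to 0.28. Self-self values are not turned by line, while each line mean averages both dye orientations. Of these 12 clones, 5 lay in block 26 and 10 in blocks 21, 22 and 26. The median clone of block 26 was at 0.29 in the liver mean. The 5 clones of that block lay between 0.45 and 0.86 on the F self-self array, where its median was 0.33. The 12 clones on the negative side lay in 7 blocks, and had a median of -0.18 on the F and -0.03 on the Fob3b self-self array. Block 2, with Hdlbp, Zfp281 and Timm8b, the 3 of smallest p on that side, had a median of -0.19 and 29 clones negative on all 4 arrays. Block 40, with Errfi1 and Alb, had a median of -0.19, block 44, with Serbp1 and Fh1, one of -0.20, and block 47, with Retsat, one of 0.05.

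Over the whole array, the 5 blocks with the most such clones held 184 of the 368 clones that were positive on all 4 arrays (50%) and 136 of the 261 that were negative on all 4 (52.1%). With every block centred on its own median, the named clones kept the sign of their mean on both sides, and 8 of 12 on each side still had 1 sign on all 4 arrays. The means were then smaller, for example 0.38 for Ptprz1, 0.36 for Cdh5, -0.68 for Hdlbp and -0.55 for Errfi1 clone 14183, while Retsat had -0.73. Centred in this way, 0 of 7680 clones (0%) passed the adjusted threshold, 322 (4.19%) had an unadjusted p under 0.05, and 787 (10.2%) had 1 sign on all 4 arrays. The part of the block shifts in the order of the genes was not tested beyond this.

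**Figure D2:**
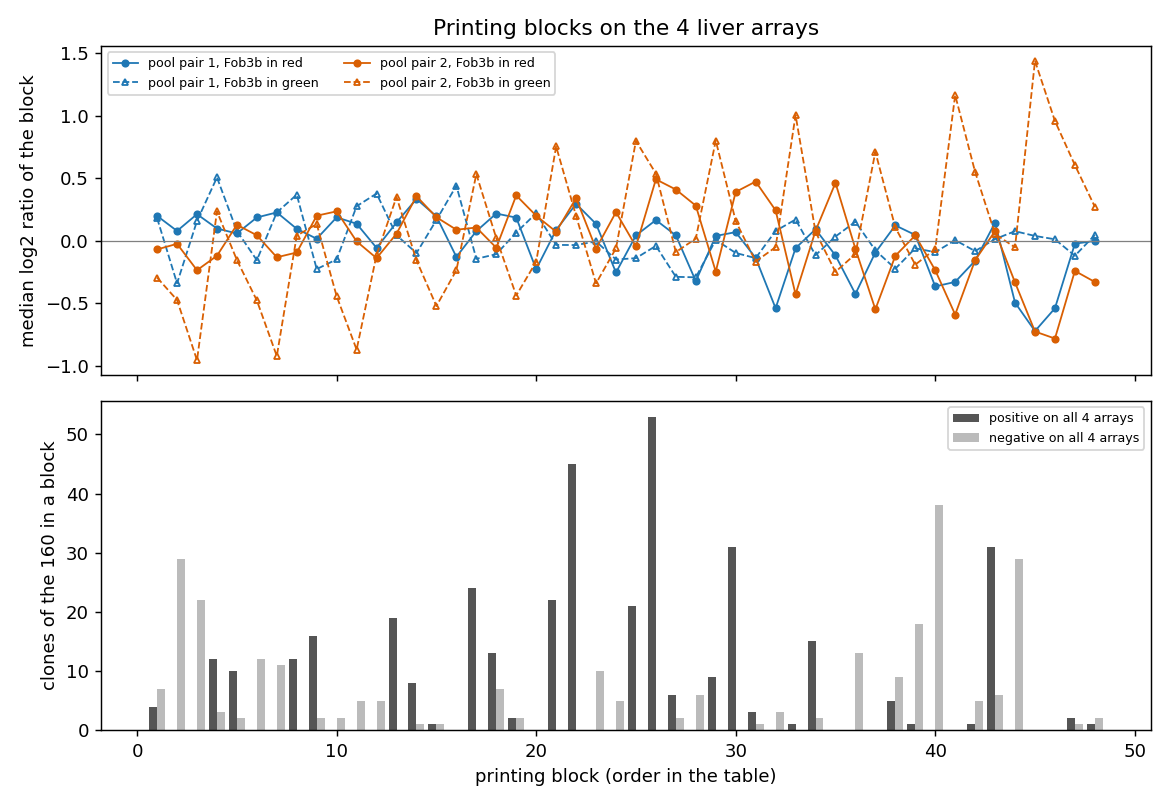
Top: median log2 ratio of Fob3b over F of the 160 clones of each printing block (horizontal axis, block 1 to 48 in table order) on the 4 liver arrays. Bottom: number of clones per block that were positive (dark) or negative (light) on all 4 arrays, with peaks of 53 positive clones in block 26 and 38 negative clones in block 40.

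Gene groups were described by the counts of their members on each side, beside all 3838 genes, of which 45.4% had a positive and 54.6% a negative mean, with a median of -0.02. Of all genes 4.85% were positive and 3.41% negative on all 4 arrays. No member of any list passed the threshold. Of 29 lists, 20 had at least 5 measured genes, and 17 of these had a negative median. The array of pool pair 1 with Fob3b in green gave the lowest of the 4 array medians in 18 of the 20 lists, and without it 8 lists had a negative median. The pool pairs differed accordingly, with 19 of 20 list medians negative in pool pair 1 and 3 of 20 in pool pair 2, those of sterol and lipoprotein transport, fatty acid oxidation and the respiratory chain. On that array the median over all genes was -0.06, while that of the amino acid list was -1.43. List medians on the self-self arrays, red over green and not turned, were also below 0 in most cases. The values without that array are therefore given beside each list with 5 or more genes, and the part of that array in the values with it was not tested further.

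**Figure D3:**
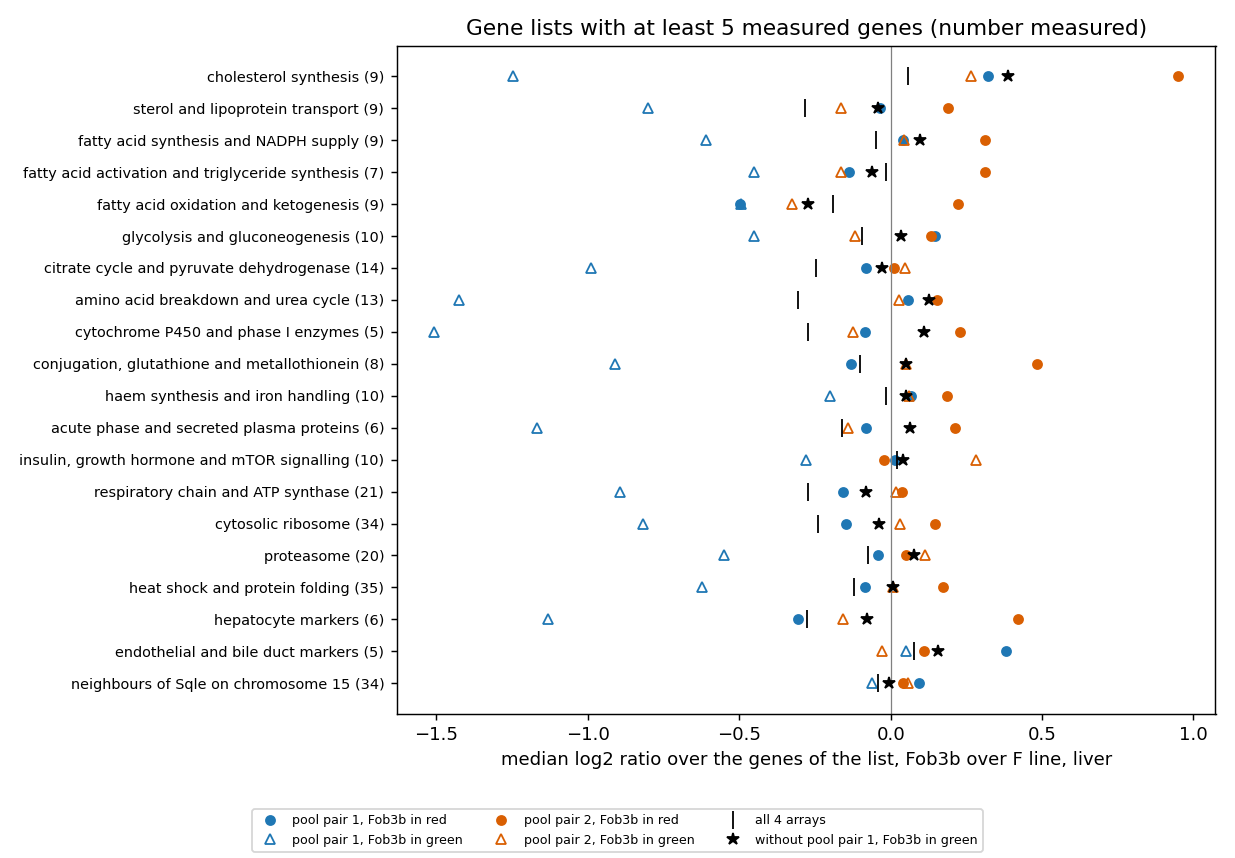
Median log2 ratio of Fob3b over F in liver over the measured genes of each list (number measured in parentheses); circles and triangles are the 4 arrays as in the plot of named clones, the tick is the median of the gene means over all arrays and the star that without pool pair 1 with Fob3b in green. The open blue triangles lie left of the other symbols in most lists, as far as -1.51 for cytochrome P450 and phase I enzymes.

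In cholesterol synthesis that array and the others were far apart. Of the 9 measured genes 6 had a positive mean, with a median of 0.06, and the array medians were 0.32, -1.25, 0.95 and 0.26. Without the array of pool pair 1 with Fob3b in green, 8 of 9 were positive with a median of 0.39, and without centring of the arrays, which moved the median of all clones to -0.11, the list median was -0.03. By pool pair, 1 of 9 genes was positive in pool pair 1, with a median of -0.34, and 9 of 9 in pool pair 2, with 0.46. Sqle, the squalene epoxidase, had 0.73, -1.39, 1.44 and 0.26, a mean of 0.26 (SE 0.30, n = 2, unadjusted p 0.41 in limma) and 0.79 without that array. Its self-self values, red over green, were -0.36 for the F line and -0.18 for the Fob3b line. Dhcr7, the last reductase of the pathway, had 0.39, -1.43, 1.52 and 0.30, and Fdft1, the squalene synthase, had 0.58, -1.25, 1.0 and -0.02. Of the 4 arrays 3 thus put Sqle and Dhcr7 on the positive side, and the array of pool pair 1 with Fob3b in green put both far on the negative side. Mvd, the mevalonate diphosphate decarboxylase, had the highest mean at 0.37 (SE 0.20), with 0.84, -0.27, 0.95 and -0.03. Idi1, the isopentenyl diphosphate isomerase, ranged from -2.24 to 0.99, and Lss, the lanosterol synthase, from -1.0 to 0.93. Ggps1, which makes geranylgeranyl diphosphate outside the sterol branch, stayed between -0.17 and 0.15, and Nsdhl between -0.28 and 0.03. Hmgcs1, which makes HMG-CoA, had -0.05, -1.25, -0.08 and 0.33. The study is known for singling out this pathway, so the list is not independent evidence of a direction.

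**Figure D4:**
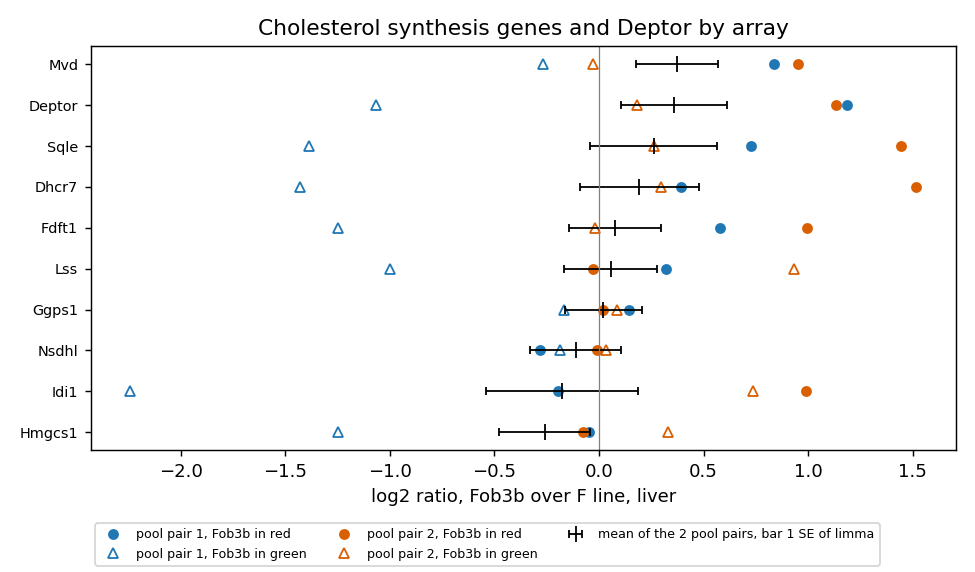
Log2 ratio of Fob3b over F in liver for the 9 measured cholesterol synthesis genes and Deptor on the 4 arrays (symbols as in the plot of named clones), with the mean ± 1 SE of limma. The open blue triangles, pool pair 1 with Fob3b in green, lie below 0 for every gene shown, while both filled circles lie above it for Sqle, Mvd, Dhcr7, Fdft1 and Deptor.

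Genes that carry sterol and lipoprotein lay mainly on the other side. Of 9 measured, 8 had a negative mean, with a median of -0.28, but without the array of pool pair 1 with Fob3b in green 6 were negative with a median of -0.04. Scarb1, the receptor that takes up cholesterol from HDL, was negative on all 4 arrays, with -0.51, -1.40, -0.13 and -0.31, a mean of -0.59 (SE 0.22). Its clone lay in block 2, and its mean was -0.40 with printing blocks centred. Apob, the scaffold of very low density lipoprotein, had 0.02, -2.05, 0.65 and -0.16, and Mttp, which loads it with lipid, a mean of -0.36 (SE 0.26). Apoa4 had -0.96, -0.30, -0.53 and 0.41. Of the bile acid genes 2 were measured. Hsd17b4, a peroxisomal enzyme of side-chain shortening, was at -0.53 (SE 0.21) and negative on all 4 arrays, with -0.32 once printing blocks were centred. The oxysterol hydroxylase gene Cyp7b1 was at -0.12.

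Fatty acid oxidation and ketogenesis stood on the negative side with and without that array. All 9 measured genes had a negative mean, with a median of -0.19, and 8 of 9 did so without the array of pool pair 1 with Fob3b in green, with a median of -0.27. By pool pair the medians were -0.40, with 9 of 9 negative, and -0.07, with 7 of 9 negative. The array medians were -0.50, -0.49, 0.22 and -0.33, so the array of pool pair 2 with Fob3b in red stood on the other side. On the self-self arrays the same genes had medians of -0.44 and -0.24, red over green, about as far from 0 as on the line arrays. The self-self values are not turned, while line arrays with Fob3b in green are, so the signs cannot be compared directly. Acadl, the long-chain acyl-CoA dehydrogenase, had -0.50, -2.01, 0.34 and -0.80, a mean of -0.74 (SE 0.23). Acadm, the medium-chain enzyme, had a mean of -0.42 (SE 0.21), and Pex11a, which promotes division of peroxisomes, -0.43 (SE 0.22), with -1.07 on the array of pool pair 1 with Fob3b in red. Hadhb of the trifunctional protein had -0.50, -0.27, 0.22 and -0.33, and the remaining 5, Eci1, Acot2, Echs1, Slc25a20 and Acads, lay between -0.19 and -0.13.

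Fatty acid synthesis and NADPH supply was split, with 6 of 9 genes negative and a median of -0.05, or 3 of 9 negative and 0.10 without the array of pool pair 1 with Fob3b in green. Idh1, the cytosolic isocitrate dehydrogenase, had -0.03, -2.57, 0.31 and 0.50, while Fasn, the fatty acid synthase, had a mean of 0.06 and Elovl6, an elongase, -0.01. Fads1, a desaturase, had 0.72, -0.03, 0.15 and -1.70. No gene of this list had 1 sign on all 4 arrays. In triglyceride synthesis 4 of 7 were negative with a median of -0.02 and -0.06 without that array. With printing blocks centred, 6 of 7 were negative with a median of -0.24. Acsl4, which activates arachidonic acid, had -0.02, -1.83, 0.25 and -1.21, a mean of -0.70 (SE 0.20). Lpin2, a phosphatidate phosphatase, had -0.43, -1.86, 0.07 and -0.65, a mean of -0.72 (SE 0.22). Both were more negative with Fob3b in green than in red in each pool pair. Their clones lay in block 2, whose own array medians were 0.08, -0.34, -0.02 and -0.47. With printing blocks centred, Acsl4 had a mean of -0.51 and Lpin2 of -0.53. Pnpla2, the triglyceride lipase, had -0.50, -0.43, 0.41 and -0.40, and Dgat1, which adds the last acyl chain, a mean of -0.02.

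Glycolysis and gluconeogenesis had 7 of 10 genes negative, with a median of -0.09 and 0.04 without the array of pool pair 1 with Fob3b in green. Gapdh had -0.22, -1.46, -0.47 and 0.58, Aldoa a mean of -0.27 (SE 0.22) and Ldha, the lactate dehydrogenase A gene, -0.22 (SE 0.20). The mitochondrial carboxykinase gene Pck2 had 0.53, 0.42, -0.17 and -1.51, so that the pool pairs disagreed in sign. In the citrate cycle, 12 of 14 were negative with a median of -0.25 and -0.03 without that array. Besides Fh1, described above, these were led by Sucla2 of succinyl-CoA synthetase at -0.44 (SE 0.23), Pdha1 of pyruvate dehydrogenase at -0.40 (SE 0.21) and Cs, the citrate synthase, at -0.35 (SE 0.21). The respiratory chain and ATP synthase followed, with 18 of 21 negative, a median of -0.27 and -0.08 without that array. Ndufa10 of complex I had -0.35, -1.29, -0.73 and 0.25, and Atp5l of ATP synthase, negative on all 4 arrays, a mean of -0.52 (SE 0.22).

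The hepatocyte's own products showed the same array. Amino acid breakdown and the urea cycle had 12 of 13 genes negative and a median of -0.30, but without the array of pool pair 1 with Fob3b in green 9 of 13 were positive with a median of 0.13. Gldc, the glycine decarboxylase, had 0.07, -2.37, 0.53 and -0.06, and Asl, the argininosuccinate lyase, -0.16, -1.52, 0.29 and -0.24. Tdo2, the tryptophan dioxygenase, had -0.38, -1.04, -0.65 and 0.34. Cytochrome P450 and phase I enzymes had 5 of 5 negative with a median of -0.27, and 3 of 5 positive with 0.11 without that array, with Cyb5a, a cytochrome b5, at -0.57 (SE 0.21). Conjugation and metallothionein genes had 7 of 8 negative, a median of -0.10 and 0.05 without it, and the metallothionein genes Mt1 and Mt2 had -0.22 (SE 0.23) and 0.13 (SE 0.26). The 6 plasma protein genes were all negative with a median of -0.16 and 0.06 without it, led by Alb. Haem and iron genes had 6 of 10 negative with a median of -0.01, but 7 of 10 were positive with 0.05 without that array, with Hmox1, the haem oxygenase, at -0.26 (SE 0.19) and Tfrc, the transferrin receptor, at 0.22 (SE 0.19).

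In insulin, growth hormone and mTOR signalling, 6 of 10 genes were positive, with a median of 0.02 that turned to -0.07 without centring and to -0.05 with printing blocks centred. Without the array of pool pair 1 with Fob3b in green it was 0.04, again with 6 of 10 positive. Socs3, which damps cytokine and growth hormone receptors, was positive on all 4 arrays with 0.20, 0.41, 0.00 and 0.60, a mean of 0.30 (SE 0.18), and its pool pairs gave 0.30 each. Its clone lay in block 13, whose own array medians were 0.15, 0.04, 0.06 and 0.35. With printing blocks centred, the mean of Socs3 was 0.15. Pik3r1, the regulatory subunit of PI3 kinase, was negative on all 4 with a mean of -0.39 (SE 0.20), and Akt1 had -0.28 (SE 0.21). Deptor, the mTOR-binding inhibitor, had 1.19, -1.07, 1.13 and 0.18 over its 2 clones, a mean of 0.36 (SE 0.25, unadjusted p 0.18 in limma). Its clone 773 had 1.97, -1.39, 1.71 and 0.34 and its clone 11974 had 0.41, -0.74, 0.55 and 0.03. Both clones were above 0 on the same 3 arrays and below 0 on the array of pool pair 1 with Fob3b in green. Of 4 clock genes 3 were positive, and Cry1, a repressor of the clock, had 0.42, 0.96, -1.19 and 1.95.

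Genes of basic cell machinery lay on the same side as most metabolic lists. The cytosolic ribosome had 30 of 34 genes negative with a median of -0.24, the proteasome 13 of 20 with -0.08, and heat shock and folding genes 26 of 35 with -0.12. Without the array of pool pair 1 with Fob3b in green the medians were -0.04, 0.08 and 0.01. Among ribosomal protein genes 5 of 34 were negative on all 4 arrays, beside 3.41% of all genes, and these 5 included Rpsa at -0.47 (SE 0.20) and Rpl10 at -0.43 (SE 0.20). Dnajc3, a chaperone of the endoplasmic reticulum, had -0.34, -1.19, -0.03 and -0.45, a mean of -0.50 (SE 0.20), and Dnajc5 -0.40 (SE 0.19).

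Markers of cell types were sparsely measured. All 6 measured of 20 hepatocyte markers were negative, with a median of -0.28, array medians of -0.31, -1.13, 0.42 and -0.16, and a median of -0.08 without the array of pool pair 1 with Fob3b in green. Of 22 macrophage markers 2 were measured. Lyz2, the macrophage lysozyme, had -0.50, -0.29, -0.30 and -0.68, a mean of -0.44 (SE 0.19). Laptm5 had -0.26 (SE 0.18). Of 20 endothelial and bile duct markers 5 were measured, with a median of 0.08 that was -0.01 without centring and 0.16 without the array of pool pair 1 with Fob3b in green. They were Cdh5 as given above, the bile duct keratin gene Krt19 at 0.47, 0.20, -0.17 and 1.51, Krt8 at -0.18 (SE 0.19), Krt18 at -0.15 (SE 0.20) and Krt7 at 0.08. The keratin genes of this list thus lay on both sides. Gata1, the only measured red cell marker, was positive on all 4 arrays with 0.37, 0.30, 0.25 and 1.09. Its self-self values, red over green and not turned, were 0.41 and 0.24. No lymphocyte or neutrophil marker was measured, and Sparc, the 1 stellate and matrix marker, had 0.10. The part of these markers in the other values was not tested.

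Among the neighbours of Sqle on chromosome 15, taken as Sqle and the 100 protein-coding genes on either side of it in the reference annotation, 34 genes were measured. They had 15 positive and 19 negative means and a median of -0.04, close to -0.02 over all genes, with array medians from -0.06 to 0.09. Without the array of pool pair 1 with Fob3b in green the median was -0.01, with 17 positive and 17 negative. Tigd5, a transposase-derived gene, was highest at 0.58 (SE 0.19), with 0.39, 0.33, -0.19 and 1.78. It was followed by Deptor and by Tbc1d31, a centrosome protein gene, at 0.32 (SE 0.21). At the other end were Eny2, a subunit of transcription and export complexes, at -0.39 (SE 0.19), and Rpl30 at -0.36 (SE 0.19). Myc had 0.07. Fbxo43 at 0.22 was the 1 neighbour that was positive on all 4 arrays, and Rpl30 the 1 that was negative on all 4. With printing blocks centred, Rpl30 had a mean of -0.15. The neighbours were listed because of the study's own locus, which is not independent of these samples.

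Liver was set against brown adipose tissue, in which fat is burnt for heat, by testing the difference between the tissues in the same fit. No clone passed (0 of 7680, 0%), the smallest adjusted p was 0.999, and 217 clones (2.83%) had an unadjusted p under 0.05. The named genes are the 8 per side with the smallest p. Where liver lay above brown adipose tissue, the clones came from few printing blocks: Gata3, C1qbp, Hnrnpm and Pou3f1 from block 21 and Phlda2 and Tigd5 from block 17. Phlda2, an imprinted regulator of placental growth, had 0.49, 0.38, -0.41 and 1.75 in liver, a mean of 0.55 against -0.55 in brown adipose tissue, a difference of 1.10 (SE 0.28). C1qbp, a mitochondrial matrix protein, had a mean of 0.53 against -0.54, a difference of 1.06 (SE 0.27). In these 8 genes the liver array of pool pair 2 with Fob3b in red was below 0, and the ranges of the tissues overlapped in each of them.

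Where brown adipose tissue lay above liver, 4 of the 8 clones, those of Hdlbp, Zfp281, Timm8b and Acsl4, came from block 2. Deptor clone 11974 had a mean of 0.06 in liver against 1.09 in brown adipose tissue (1.53, 0.99, 1.59 and 0.27), a difference of -1.03 (SE 0.29). The other Deptor clone, 773, had a mean of 0.66 (SE 0.35) in liver against 2.36 in brown adipose tissue. Scd2, a stearoyl-CoA desaturase, had -0.16, 0.43, 0.00 and -0.46 in liver, a mean of -0.05 against 1.21, a difference of -1.25 (SE 0.37). Me1, the malic enzyme that yields NADPH, had a mean of -0.41 in its clone 843 against 0.76, a difference of -1.17 (SE 0.34). All 4 liver values of that Me1 clone were below its 4 values in brown adipose tissue. The other Me1 clone, 8720, had -0.16, -1.27, 0.57 and 0.52 in liver, a mean of -0.09 against 0.75 in brown adipose tissue. For Scd2 1 of the 4 brown adipose arrays, at -0.29, lay among the liver values. Acsl4 had -0.70 against 0.22, a difference of -0.92 (SE 0.29). Hdlbp, Zfp281, Timm8b and Eef1a1, a translation elongation factor, completed this side with liver means of -0.87, -1.09, -0.75 and -0.65 and brown adipose means of 0.16, 0.11, 0.19 and 0.20.

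**Figure D5:**
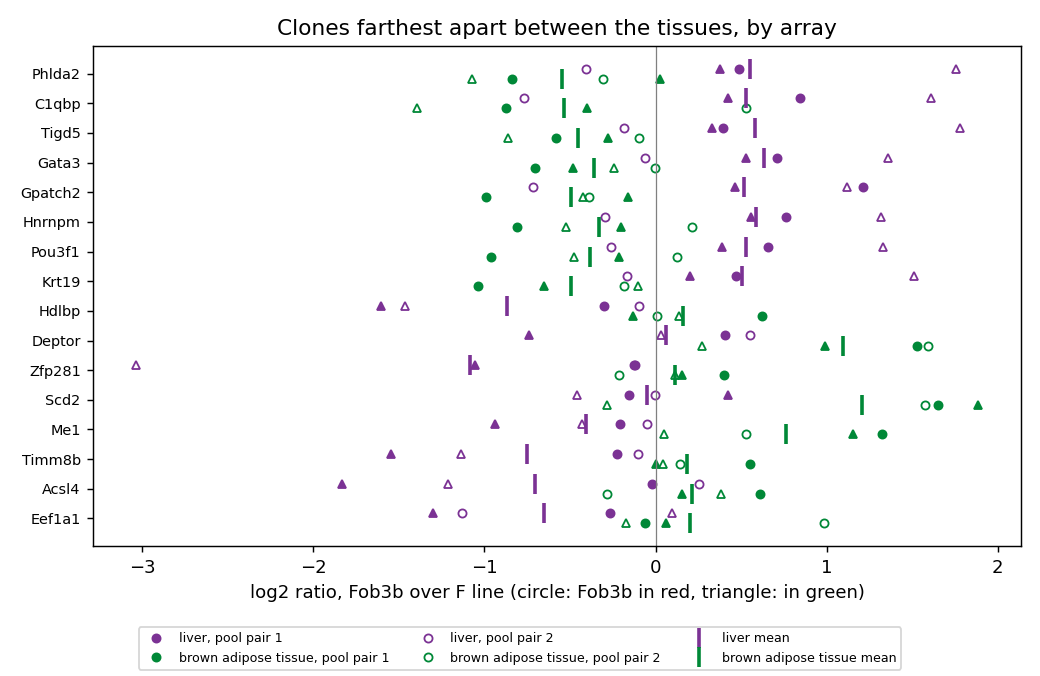
Log2 ratio of Fob3b over F (horizontal axis) in liver (purple) and brown adipose tissue (green) for the 16 clones with the smallest p of the difference between tissues, 8 per side; filled symbols are pool pair 1, open symbols pool pair 2, circles Fob3b in red, triangles Fob3b in green, and ticks the tissue means. For Me1 and Hdlbp the difference of the means was -1.17 and -1.03, and no difference passed the adjusted threshold.

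Gene lists in the tissues are given side by side, and the differences between lists were not tested. In brown adipose tissue 60.2% of all genes had a positive mean, with a median of 0.04, beside 45.4% in liver. Fatty acid oxidation had 9 of 9 negative in liver and 9 of 9 positive in brown adipose tissue, with medians of -0.19 and 0.13. The citrate cycle had 12 of 14 negative against 14 of 14 positive, with medians of -0.25 and 0.29, and the respiratory chain 18 of 21 negative against 21 of 21 positive, with -0.27 and 0.13. Without the array of pool pair 1 with Fob3b in green, the liver medians of these 3 lists were -0.27, -0.03 and -0.08, and in pool pair 2 alone the citrate cycle had 0.02. Glycolysis had a median of -0.09 in liver, or 0.04 without that array, and 0.32 in brown adipose tissue, where 10 of 10 genes were positive. The brown adipose counts are of means over its 4 arrays. On its array of pool pair 2 with Fob3b in green, most genes of the citrate cycle, respiratory chain and glycolysis lists were below 0. Most fatty acid oxidation genes were above 0 there. Cyc1 of the respiratory chain, for example, had 0.10, 0.18, 0.82 and -0.23 in brown adipose tissue. Cholesterol synthesis had medians of 0.06 and 0.47, and Sqle means of 0.26 and 0.55.

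The same liver pools were hybridised to the second design, which carried other clones and shared 943 genes with the first. Of the 24 genes named first, 7 were measured there. Pmm1 had 0.18 there in each pool pair, against 0.71 on the first design. Tanc2 had -0.62, against 0.24 over its 3 clones on the first design. Zfp281 had -0.06 against -1.09, and Chek2 0.05 against 0.51. Serbp1 and Psma3 had 0.03 each there, and Ptprz1 0.05. Apart from Tanc2 these values lay within 0.2 of 0 on the second design. On the second design 51.8% of all genes had a positive liver mean, with a median of 0.01. For fatty acid oxidation it measured 14 genes, all with a negative mean and a median of -0.18, beside -0.19 on the first. These were mostly other genes: Acadl alone was measured on both designs, with -0.02 on the second against -0.74 on the first. For the respiratory chain it had 28 of 34 positive with 0.06, for the cytosolic ribosome 44 of 60 positive with 0.08, and for amino acid breakdown 10 of 12 positive with 0.14. Of cholesterol genes it measured 2, both positive, with a median of 0.25. Ggps1 was 1 of them, at 0.008 with pool pairs of 0.05 and -0.04, so that median rests mainly on the other gene.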

How the data were processed

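Each array carried 17280 spots in 48 blocks, with 7680 clones spotted in duplicate 160 rows apart and 1920 control spots, which were left out. The authors deposited 1 value per spot, a log ratio of the dyes, which was read as a log2 ratio. Its base and numerator are not stated, and a natural logarithm is not excluded. How the deposited log2 ratios were labelled, scanned, background-corrected and normalized was not given in the sources used here. Depth in the sense of reads does not apply, and the number of arrays limits the precision. With the annotation supplied for the arrays, 1 gene could be named for 4749 clones (3838 genes), several for 227 and none for 2704, and the neighbours of Sqle were read from the table of RefSeq genes (GRCm38.p6).

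Arrays were centred on the median clone, the spots of a clone averaged, ratios turned to Fob3b over F by the channel labels, and dye swaps averaged per pool pair. The channel labels were also used for the Fob3b self-self array, whose description differs. limma 3.58.1 in R 4.3.3 fitted 2 liver and 2 brown adipose pool pairs with tissue as the factor, 2 residual and 9.09 prior degrees of freedom, two-sided tests and Benjamini-Hochberg adjustment over all clones, with an adjusted p under 0.05 as the threshold. Clones of a gene were averaged for gene values, with a fit of their own. P-values measure the spread between pool pairs, not animals, and no source says how the pools were made up. The steps were tested on simulated data. Centring, scaling, spot choice, the unit of replication, the model and the arrays were varied.

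The members, gene lists and tests were chosen with earlier results of these data known. Genes were named by rule: per side 12 genes, first clones past the threshold with 1 sign on all 4 arrays, by size of mean, then such clones short of it, by p; 8 per side for liver minus brown adipose tissue; up to 4 members of a list by smallest p; the cholesterol genes, Sqle, Deptor and the neighbours of Sqle. Other list members, Rpsa and Usp53 were named after their values were seen.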

Additional observations from a re-analysis of the deposited data

Results flagged for a closer look

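The 4 liver array values of 66 results (20 gene list medians, 37 named clones and 9 cholesterol genes) were searched for 1 array far from the other 3 by Dixon's criterion. By chance it marks about 1 in 20 independent, unselected groups. The results here share arrays and the clones were chosen by their values, so that rate does not apply to them. The criterion marked 7 results. For 4 of them the array was pool pair 1 with Fob3b in green. On that array the median of citrate cycle and pyruvate dehydrogenase genes was -0.99, with the others from -0.08 to 0.05, and the median of amino acid breakdown and urea cycle genes was -1.43, with the others from 0.03 to 0.15. Alb stood there at -2.27, with the others from -0.28 to -0.15, and Retsat at -1.33, with the others from -0.52 to -0.37. On the array of pool pair 2 with Fob3b in red, Pmm1 had 1.95, with the others from 0.13 to 0.39. On the array of pool pair 2 with Fob3b in green, B9d1 had 1.34, with the others from 0.19 to 0.38, and Washc3 had -2.01, with the others from -0.38 to -0.06. The causes were not tested.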

How the results depend on the processing

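With 2 pool pairs and a median SE of 0.20, only large differences could pass, and signal over background could not be checked. Under each of the alternatives run that kept both liver pool pairs, 0 clones passed the threshold in liver and in liver minus brown adipose tissue. This holds for no centring, printing blocks centred, arrays scaled to a common spread, either spot alone, clones with disagreeing spots left out, robust variances, each array as its own replicate with and without a dye term, and clones averaged per gene, and in liver for single arrays left out and for liver fitted alone. With printing blocks centred after the data were seen, liver alone, each array as a replicate and gene averages also gave 0. With the pool number as a replicate block across tissues, 0 clones passed in either comparison, 527 had an unadjusted p under 0.05 in liver, and no list median moved. The pool numbers are shared between the tissues, but no label says that they mark the same animals, and the pool differences of the tissues correlated at 0.38 over clones. Leaving out a pool pair gave 32 to 131 clones in liver and 13 to 90 in the difference, where the lone liver pair is assumed to vary like brown adipose tissue. Leaving out pool pairs or arrays gave list medians of -0.347 to 0.0744 for triglyceride synthesis, -0.152 to 0.0811 for insulin, growth hormone and mTOR signalling, which had -0.0691 without centring, and -0.0938 to 0.109 for the neighbours of Sqle (-0.0715 in pool pair 1). Of the 24 clones named first, chosen for 1 sign on all 4 arrays, 3 passed the threshold in pool pair 1 alone (Errfi1, Gdap1 and Alb) and 3 others in pool pair 2 alone (Etl4, Pmm1 and Zfp281).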
